A study of Homo sapiens with 6 samples.

Results

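The MYC, MAX and MXD network was described from its mRNA levels in Kasumi-1 cells. Its 10 members are MYC, MYCN, MYCL, MAX, MXD1, MXD3, MXD4, MXI1, MNT and MGA, each found as the row whose Ensembl identifier belongs to that symbol, out of 29810 genes in the deposited table. Kasumi-1 is a human acute myeloid leukemia line with the t(8;21) translocation, which makes the RUNX1-RUNX1T1 fusion. mRNA-seq was performed on 6 libraries, 3 from cells incubated with control and 3 from cells incubated with 0.25 μM I3. I3 is a histone deacetylase (HDAC) inhibitor. In the paper's methods the control is DMSO, the solvent of I3, at a matched concentration, whereas the labels say only control. Both incubations are taken as 48 h, the time in the paper's methods. The legend of its figure on these data gives a longer time at the same dose. No transgene and no agent beyond I3 and DMSO is named, and the data stand for a single cell line.

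MYC proteins bind DNA as pairs with MAX, most tightly at the E-box motif CACGTG, and drive genes of ribosome making, metabolism and cell division. MXD1, MXD3, MXD4, MXI1 and MNT compete for MAX at the same motif and recruit SIN3 with its deacetylases, so that the network holds activators and repressors that share a partner. In myeloid cells MYC is high in progenitors and falls in differentiation, while MXD1 is known to be induced as they mature.

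The values are FPKM, fragments scaled to gene length and to the size of the library. They allow levels of different genes to be compared per length. Reads rebuilt from FPKM and exon length put the depth at 17500315 to 18193288 reads per library. All 10 members came out as whole reads in all libraries at a tolerance of 0.1 read. The length used was that of all annotated exons of a gene merged, 3001 bases for MYC, 4430 for MAX and 17651 for MGA. It can exceed the length of the mRNA, so the order and ratios of the members are approximate. The 6 markers of t(8;21) myeloid cells (RUNX1T1, MPO, CD33, CD34, KIT and AZU1) were above 1 FPKM in each library, and their summed level was 8615 to 9583 FPKM in control cells and 8664 to 9398 FPKM after I3. Most of this sum was MPO, at 7740.2 to 8612.1 FPKM over the 6 libraries, while RUNX1T1 was at 14.1 to 17.0 FPKM. Of the other cell types, T cell markers summed to at most 1.15 FPKM, and the erythroid and fibroblast markers in the table to at most 0.136 and 0.0115 FPKM. CD14, a monocyte marker, was at most 0.0303 FPKM, LYZ was between 4.84 and 11.4 FPKM and CSF1R between 3.91 and 5.84 FPKM. EPCAM (28.2 to 31.6 FPKM) and CD79B (3.94 to 6.1 FPKM) were detected in each library, whereas the epithelial keratins KRT8 and KRT18 were at most 0.0327 FPKM.

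RefSeq promoter windows on GRCh38.p14, from 250 bases before to 50 bases after a start site, were searched for CACGTG, which reads the same on both strands. Of the 9 members with a window, 2 held the motif, MXD4 and MNT. The motif was in 7.26% of all 35116 windows and in 12.9% of the 8924 tested genes with a window. The stretches of these windows that lie before the annotated gene are shown because they are the members' matches, with the motif in capitals and 5′ to 3′ on the gene's strand. They are chr4:2262295-2262359 (minus strand) for MXD4, where the motif begins 238 bases before the start site, and chr17:2401119-2401310 (minus strand) for MNT, where it begins 193 bases before it.
MXD4: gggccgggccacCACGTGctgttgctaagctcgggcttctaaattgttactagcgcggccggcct
MNT: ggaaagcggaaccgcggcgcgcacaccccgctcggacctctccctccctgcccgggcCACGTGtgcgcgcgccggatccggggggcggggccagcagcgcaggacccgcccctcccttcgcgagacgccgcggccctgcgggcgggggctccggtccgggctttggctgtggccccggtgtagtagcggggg

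MYC was by far the most abundant member. Its mRNA made up 84.2% to 86.6% of the summed FPKM of the 10 members in control libraries and 84.7% to 85.9% after I3. In control cells MYC ranked 89 among all genes in the table, whereas MAX, the partner that each MYC protein needs, ranked 4219. The order of mean control levels was MYC, MXD4, MXI1, MGA, MAX, MXD1, MXD3, MYCN, MNT and MYCL. MXD4, MXI1, MGA and MAX were neighbours whose library values overlapped, between 9 and 13.4 FPKM, and so were MXD3 and MYCN. The step from MYC to MXD4, from MAX to MXD1, from MXD1 to MXD3, from MYCN to MNT and from MNT to MYCL left no overlap of library values in either group.

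**Figure D1:**
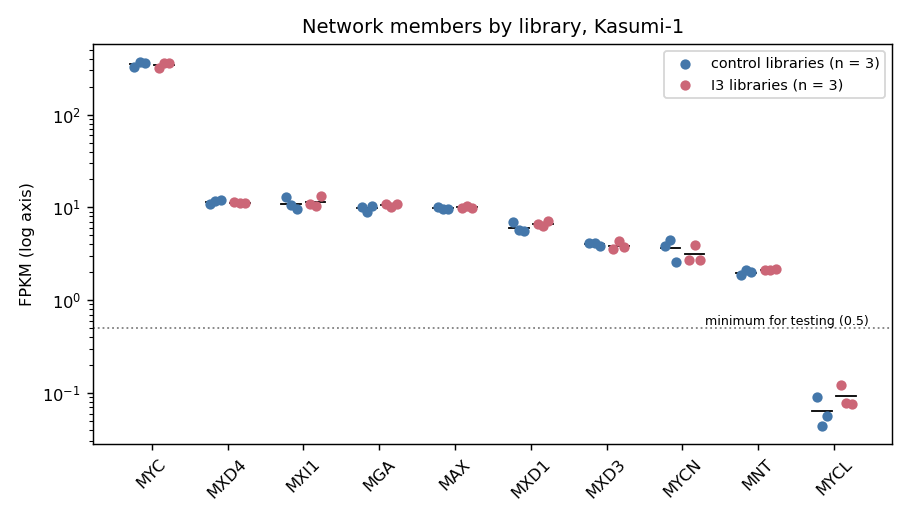
FPKM (log axis) of the 10 members in each of the 3 control (blue) and 3 I3 (red) libraries, with black bars at group means and a dotted line at the minimum mean of 0.5 FPKM for testing. MYC lies between 321.2 and 367.8 FPKM, every other member is at or below 13.4 FPKM, and MYCL is the one member under the minimum.

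I3 and control cells were compared with limma on log2(FPKM + 0.5), two-sided, over the 12960 genes whose mean was 0.5 FPKM or more. This scale understates the fold change of a gene with a low level. The thresholds were an adjusted p of 0.05 (Benjamini-Hochberg over all tested genes) and a log2 fold change of 0.58 in either direction. Of the 10 members, 9 passed the minimum and 0 of them were called, against 0% of all tested genes. At an unadjusted p under 0.05, limma gave 0 of the 9 members, where 4.93% of all tested genes passed, and voom on the rebuilt reads also gave 0 members. The adjusted p was 0.998 for each of the 9 members in limma, and the smallest adjusted p of any gene was 0.309. The log2 fold change was above 0 for 5 members and below 0 for 4, with a median of 0.033 beside 0.0107 for all tested genes. Because a p above the threshold does not show equal levels, the 95% interval of each difference was read as well. It lay within 0.58 in either direction for 8 of the 9 members (81.6% of all tested genes), and MYCN was the exception.

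**Figure D2:**
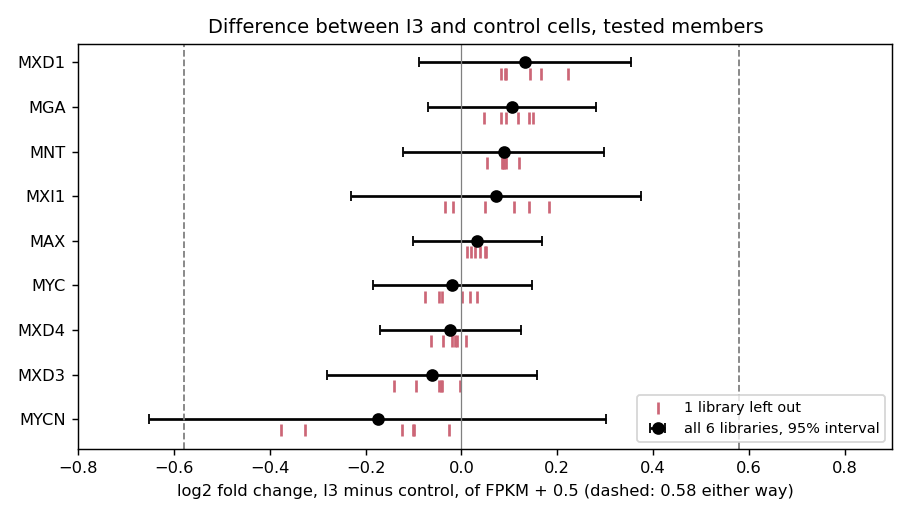
log2 fold change of FPKM + 0.5, I3 minus control, of the 9 tested members (black points, 95% intervals from limma, 3 against 3 libraries), with red ticks for the value when 1 library was left out and dashed lines at 0.58 in either direction. All 9 intervals include 0, the points run from -0.175 for MYCN to 0.133 for MXD1, and the ticks of MYC, MXD4 and MXI1 fall on both sides of 0.

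MYC (ENSG00000136997) lies on chromosome 8 from 127735434 to 127741434, on the plus strand. Its level was 322.7, 367.8 and 359.4 FPKM in control 1, 2 and 3, and 321.2, 359.1 and 355.8 FPKM in I3 1, 2 and 3. Library 1 was the lowest of each group, and the groups overlapped almost fully. The means were 349.9 ± 24 FPKM (SD, n = 3) and 345.4 ± 21 FPKM (SD, n = 3). On the log2 scale the difference was -0.019 (standard error 0.0711, 95% interval -0.185 to 0.148, limma p = 0.802), and the two-sided exact permutation p was 0.5. A log2 fold change of 0.58 in either direction was therefore outside the interval for this gene. MYC was counted with 55622 control reads and 55776 I3 reads. The ratio per total reads was 0.987, with a 95% interval of 0.975 to 0.999 that covers counting error only. Within groups the rebuilt reads of MYC varied by a chi-square of 77.9 per degree of freedom, beside a median of 3.81 for all tested genes, so that this interval is much narrower than the spread between libraries.

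The paralogs MYCN and MYCL, best known from neural tumors and lung cancer, were low. MYCN (chromosome 2, 15940564 to 15947007) was at 3.85, 4.49 and 2.57 FPKM in control cells and 2.74, 3.93 and 2.73 FPKM after I3. High and low libraries were found in both groups, and MYCN was the tested member with the widest spread, with a coefficient of variation of 26.9% in control cells and 22.1% after I3. On the log2 scale the difference was -0.175 (standard error 0.204, 95% interval -0.653 to 0.302, limma p = 0.416, exact permutation p = 0.7), so a decrease past 0.58 was not outside its interval. MYC exceeded MYCN by 81.9 to 139.9 times in control libraries and by 91.4 to 130.6 times after I3. MYCL (chromosome 1, 39895426 to 39902256) was counted with 8, 4 and 5 reads in control cells and 11, 7 and 7 reads after I3, which stand for 0.0444 to 0.122 FPKM. The ratio of 25 to 17 reads was 1.45 per total reads, with an exact interval for counting error of 0.751 to 2.86. A difference in MYCL within this interval was thus not resolved at this depth. The exons of MYCN share 98 bases with the antisense gene MYCNOS, which was at 0 to 0.235 FPKM.

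MAX, the obligate partner, was among the steadiest members. It lies on chromosome 14 from 65006174 to 65102695 and was at 9.99, 9.68 and 9.56 FPKM in control cells and 9.91, 10.3 and 9.74 FPKM after I3. Both groups spanned less than 1 FPKM, and the chi-square of the rebuilt reads within groups was 0.533 per degree of freedom, so that libraries of a group differed by no more than counting error. I3 exceeded control by a log2 fold change of 0.033 (standard error 0.0578, 95% interval -0.102 to 0.169, limma p = 0.583, exact permutation p = 0.4). Per length, MYC mRNA exceeded MAX mRNA by 32.3, 38.0 and 37.6 times in control cells and by 32.4, 34.9 and 36.5 times after I3. The summed level of MXD1, MXD3, MXD4 and MXI1 exceeded MAX by 3.24 to 3.47 times in control cells and by 3.14 to 3.62 times after I3. MYC exceeded that sum by 9.31, 11.5 and 11.6 times in control cells and by 9.89, 11.1 and 10.1 times after I3. These ratios of mRNA overlapped between the groups.

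Of the 4 MXD repressors, MXD1 had the largest difference between the groups. MXD1 (chromosome 2, 69897688 to 69942945) was at 6.9, 5.68 and 5.59 FPKM in control cells and 6.57, 6.34 and 7.09 FPKM after I3. Control 2 and 3 lay below all I3 libraries, but control 1 lay within them. I3 libraries exceeded control libraries by 0.133 on the log2 scale (standard error 0.0946, 95% interval -0.089 to 0.355, limma p = 0.201, exact permutation p = 0.3). Without control 1 it was 0.2232 (standard error 0.0727, limma adjusted p = 0.434) and passed an unadjusted p of 0.05, in a fit in which 1420 of all tested genes did so instead of 639.

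MXI1 (chromosome 10, 110207605 to 110287365), also known as a MYC antagonist, was at 12.8, 10.5 and 9.59 FPKM in control cells and 10.9, 10.4 and 13.4 FPKM after I3. As for MXD1, the highest library of each group was control 1 and I3 3. On the log2 scale MXI1 differed by 0.072 (standard error 0.129, limma p = 0.595, exact permutation p = 0.6), and the sign turned when control 3 (-0.0166) or I3 3 (-0.0342) was left out. MXD4 (chromosome 4, 2247432 to 2262294), the MXD repressor with the highest mean in control cells but not after I3, was at 10.8, 11.6 and 12 FPKM in control cells and 11.5, 11.2 and 11.1 FPKM after I3. The I3 values lay inside the control range, with a log2 fold change of -0.023 (standard error 0.0624, limma p = 0.727, exact permutation p = 0.6). MXD3 (chromosome 5, 177301461 to 177312757), which among the MXD proteins is tied to dividing cells, was at 4.16, 4.14 and 3.85 FPKM in control cells and 3.52, 4.37 and 3.73 FPKM after I3. The groups overlapped, with a log2 fold change of -0.061 (standard error 0.0933, limma p = 0.531, exact permutation p = 0.6). Its exons share 926 bases with RAB24 on the same strand and 1158 bases with PRELID1 on the opposite strand, and those of MXD1 share 237 bases with SNRNP27 on the same strand. The exons of MAX, MXI1, MGA and MYCL share 184, 205, 510 and 226 bases with noncoding genes on the opposite strand. Those of MXD4 share 80 bases with a microRNA gene on the same strand. The assignment of reads in all these stretches is uncertain. Neither the rule for shared exons nor the strand setting is given in the sources used here.

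MNT and MGA are the large MAX partners, MNT a broadly expressed SIN3-binding repressor and MGA the scaffold of the polycomb complex PRC1.6. MNT (chromosome 17, 2384060 to 2401118) was at 1.87, 2.1 and 1.99 FPKM in control cells and 2.12, 2.14 and 2.15 FPKM after I3. All 3 I3 libraries lay above all 3 control libraries, by 2.1 against 2.12 FPKM at the closest, and MNT was the only 1 of the 9 tested members whose groups did not overlap (9.7% of all tested genes). In reads the values were 288, 326 and 304 against 330, 333 and 342. The log2 fold change of 0.088 (standard error 0.0894, 95% interval -0.122 to 0.298, limma p = 0.357) did not pass, and the exact permutation p was 0.1, the smallest that 3 against 3 libraries allow. With median-of-ratios scaling or quantile normalization the groups of MNT overlapped. The exons of MNT share 1065 bases with an antisense gene that is not analysed here.

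MGA (chromosome 15, 41621224 to 41773081) was at 9.98, 9.0 and 10.4 FPKM in control cells and 10.8, 10 and 10.9 FPKM after I3. Control 3 exceeded I3 2, so the groups overlapped. MGA had a log2 fold change of 0.105 (standard error 0.0742, 95% interval -0.069 to 0.28, limma p = 0.197, exact permutation p = 0.2). MGA had the longest exon sequence of the members, 17651 bases, and the most reads after MYC, 9157 in control cells and 10039 after I3.

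The deviations of some members from their means moved with a property of the libraries, whereas those of MAX and MNT followed it little. Over 12939 genes, each library's deviations from the gene means were ranked against GC content, and the correlation was negative in control 1 (-0.313), I3 1 (-0.232) and I3 3 (-0.446) and positive in control 2 (0.446), control 3 (0.337) and I3 2 (0.262). MXD1 and MXI1, with 44.7% and 47.4% GC, were highest in control 1 and I3 3 and lowest in control 3. MXD1 deviated by 0.114 in control 1 and 0.15 in I3 3, against -0.146 and -0.168 in control 2 and 3. MYC, with 58.7% GC, was lowest in control 1 and I3 1 (deviations of -0.105 and -0.112), but lay 0.036 above its mean in I3 3. After removal of the GC trend from each library, the log2 fold change was 0.1076 for MXD1 (standard error 0.0699), 0.0538 for MXI1 (standard error 0.117) and 0.0001 for MYC (standard error 0.058). No member was called then either.

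**Figure D3:**
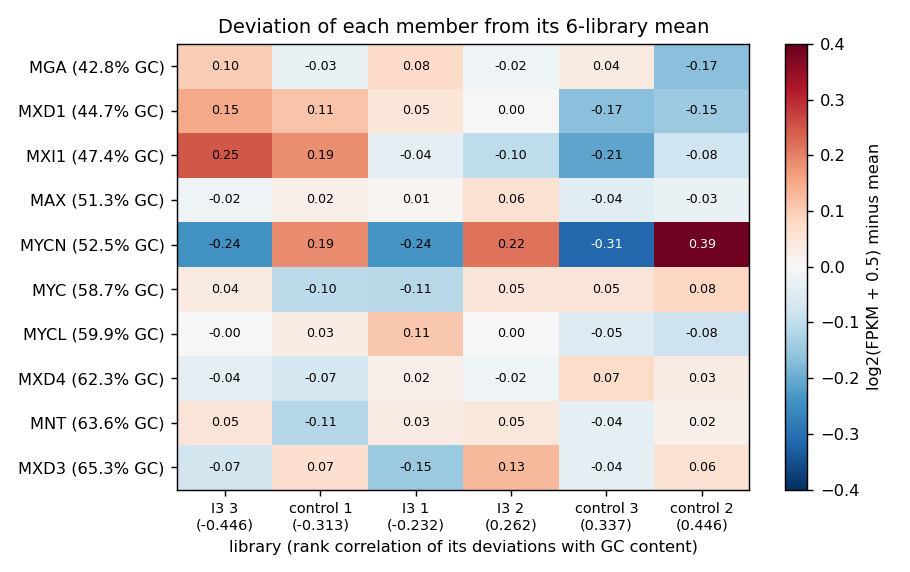
Deviation of log2(FPKM + 0.5) from the member's mean over 6 libraries, with members ordered by GC content and libraries by the rank correlation of their deviations with GC content (in brackets). MXD1 and MXI1 are above their means in the columns of I3 3 and control 1 and below them in those of control 2 and control 3, and MYCN has the widest range, from -0.31 to 0.39.

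The genes whose levels followed MYC or MAX most closely over the 6 libraries are given as a description. For MYC they included PYGL, a glycogen phosphorylase (Pearson's r = 0.996), and YEATS2, a reader subunit of a histone acetyltransferase complex (r = 0.991). Among the 6636 genes whose mean was 5 FPKM or more, 197 had an r of 0.9 or more with MYC and 25 with MAX. For MAX they included PABPC1L (0.976) and C21orf58 (0.965). All points share the libraries and their GC trends, and no test was made.

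The partners and complexes of the network were read from lists of genes, each beside all tested genes. No gene of any of the 8 lists was called, and none reached a log2 fold change of 0.58 in either direction. MLX is a MAX-like factor that pairs with the glucose sensor MondoA (MLXIP). Of this branch 4 genes were tested, with 0 at an unadjusted p under 0.05 (4.93% of all tested genes). MLX was at 11.8 to 13.9 FPKM with a log2 fold change of -0.019, and MLXIP was at 16.2 to 18.5 FPKM with 0.004. Their target TXNIP, an inhibitor of glucose uptake, was at 90, 54.9 and 57.7 FPKM in control cells and 62.0, 68.7 and 73.1 FPKM after I3, where control 1 stood apart from its group. The log2 fold change was 0.042 for TXNIP and -0.128 for ARRDC4, another target.

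The MYC cofactors open chromatin and release RNA polymerase at MYC sites. Of 15 genes, 0 had an unadjusted p under 0.05 (4.93% of all tested genes), and the median log2 fold change was 0.005. The 3 with the smallest p were CCNT1, the cyclin of the elongation kinase CDK9 (0.124, 95% interval -0.023 to 0.272), SMARCB1 of the SWI/SNF complex (-0.068, 95% interval -0.211 to 0.076) and RUVBL2, an ATPase of the TIP60 and INO80 complexes (-0.089, 95% interval -0.278 to 0.1). CCNT1 was at 12.2 to 12.9 FPKM in control cells and 13.3 to 14.7 FPKM after I3.

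The SIN3 and NCOR corepressors hold the deacetylases that HDAC inhibitors target. Of 20 tested genes, 0 had an unadjusted p under 0.05 (4.93% of all tested genes), and the median log2 fold change was 0.026. HDAC1 was at 43.6, 44.0 and 46.8 FPKM in control cells and 43.6, 47.1 and 45.4 FPKM after I3, a log2 fold change of 0.016. HDAC2 and HDAC3 differed by 0.027 and -0.015 on the log2 scale, each with an interval that included 0. These 3 deacetylases were named after their values had been seen. ING2, a reader of methylated histone H3 in the SIN3 complex, was at 11.5, 9.73 and 13.3 FPKM in control cells and 10.6, 8.28 and 8.71 FPKM after I3 (log2 fold change -0.305, 95% interval -0.615 to 0.004). SAP30, a SIN3 subunit, was at 17.1 to 18.6 FPKM in control cells and 17.4, 15.9 and 10.9 FPKM after I3 (-0.309, 95% interval -0.681 to 0.064), so that I3 3 lay far below the other 5 libraries. KDM5A, a histone demethylase, had a log2 fold change of 0.11 (95% interval -0.037 to 0.257).

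In PRC1.6, the polycomb complex in which MGA and MAX silence germline genes, 1 of 10 genes had an unadjusted p under 0.05 in the higher direction (2.08% of all tested genes) and 0 in the lower one (2.85%). It was E2F6, the repressive E2F factor of the complex, at 7.41, 7.1 and 7.43 FPKM in control cells and 7.93, 8.75 and 8.85 FPKM after I3. The groups did not overlap. Its log2 fold change was 0.205 (standard error 0.0674, 95% interval 0.046 to 0.363), and with an adjusted p of 0.868 it was not called. Without control 2, I3 2 or I3 3, each left out in turn, 0 genes of the list had an unadjusted p under 0.05. TFDP2, which pairs with E2F factors, and PCGF6, the subunit that defines PRC1.6, had log2 fold changes of 0.116 (95% interval -0.021 to 0.253) and 0.114 (95% interval -0.055 to 0.282). The median of the list was 0.044, and it was 0.1084 without control 1.

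MYC protein is short-lived, and its turnover is not measured by mRNA. Of 17 tested genes that set it, 0 had an unadjusted p under 0.05 (4.93% of all tested genes). Their median log2 fold change was 0.034. PPP2R5A, a phosphatase subunit that promotes MYC loss, was at 13, 10.9 and 11.4 FPKM in control cells and 10.7, 10.6 and 8.59 FPKM after I3 (log2 fold change -0.235, 95% interval -0.481 to 0.012). SKP2, a ubiquitin ligase subunit for MYC and for p27, was at 15.8 to 16.2 FPKM in control cells and 17.0 to 17.3 FPKM after I3, a difference of 0.095 (95% interval -0.024 to 0.214). STUB1, another ligase, had -0.236 (95% interval -0.548 to 0.075).

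Genes known to be induced by MYC were mostly expressed. Of 58 listed genes 57 passed the minimum and were tested, with 1 higher and 2 lower at an unadjusted p under 0.05 (2.08% and 2.85% of all tested genes) and a median log2 fold change of -0.014. This count of 3 of 57 was near the share of 4.93% over all tested genes. Groups without overlap were found in 5 of the 57, which is 8.77% beside 9.7% of all tested genes. PPAT, which starts purine synthesis, was at 26.0, 23.8 and 23.7 FPKM in control cells and 27.2, 28.1 and 31.2 FPKM after I3 (0.228, 95% interval 0.06 to 0.396, adjusted p = 0.845). E2F1, a driver of S phase, was at 19.9, 23.8 and 20.8 FPKM in control cells and 18.8, 19.7 and 16.6 FPKM after I3 (-0.221, 95% interval -0.433 to -0.008, adjusted p = 0.998). The closest libraries of E2F1 differed by only 0.2 FPKM. SLC3A2, the heavy chain of amino acid transporters, was at 21 to 22.9 FPKM in control cells and 20.1 to 20.2 FPKM after I3 (-0.133, 95% interval -0.264 to -0.003, adjusted p = 0.998).

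By role, the 22 genes of ribosome making had a median log2 fold change of -0.023 and a range of -0.133 to 0.083. Of these, 0 had an unadjusted p under 0.05 (4.93% of all tested genes). The 13 genes of nucleotide, polyamine and 1-carbon synthesis had a median of 0.017. The 6 genes of glycolysis and uptake had a median of -0.099, and 5 of them were below 0. In this group, formed after the data had been seen, 3 genes had groups without overlap, counted in either direction. In each of these genes the I3 libraries lay wholly below the control libraries. Groups without overlap, in either direction, made up 8.77% of the whole list and 9.7% of all tested genes. Of the genes of glycolysis and uptake, LDHA was at 126.7, 111.2 and 107.9 FPKM in control cells and 102.8, 106.5 and 104.2 FPKM after I3. It was not called (log2 fold change -0.138, 95% interval -0.297 to 0.022). LDHA was named after its values had been seen. The 5 cell cycle genes had a median of -0.066, the 3 tested translation genes 0.072 and the 8 chaperones and other genes -0.001. EIF4A1, a translation factor that most cells use in abundance, was listed at only 0.254 to 0.507 FPKM and was not tested.

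CACGTG was in the promoter window of 27 of the 48 MYC-induced genes that had one, 56.2%. The share was 30.0% of 10 genes for the MYC cofactors and 5.56% of 18 genes for the SIN3 and NCOR corepressors. The tested genes with the motif had a median log2 fold change of 0.00282, and those without it 0.00781. An unadjusted p under 0.05 was found for 3.29% of the 1154 genes with the motif and for 3.98% of the 7770 without it. The matches of the 4 most abundant induced genes whose motif lies before the start site are shown as examples, 12 bases to either side, from GRCh38.p14. They are HSPD1 (chr2:197500345-197500374, minus strand), a mitochondrial chaperone, APEX1 (chr14:20455109-20455138, plus strand), a DNA repair enzyme, ODC1 (chr2:10448024-10448053, minus strand), the first enzyme of polyamine synthesis, and EIF4G1 (chr3:184314450-184314479, plus strand), a translation factor.
HSPD1: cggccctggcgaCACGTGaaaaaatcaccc
APEX1: aagcgtctccgtCACGTGgtgtcagacaga
ODC1: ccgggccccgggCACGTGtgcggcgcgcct
EIF4G1: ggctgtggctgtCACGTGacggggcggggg

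In all 4 targets the groups overlapped. HSPD1 was at 245.4, 242.9 and 244.8 FPKM in control cells and 243.5, 242.2 and 265.6 FPKM after I3, with a log2 fold change of 0.034. APEX1 was at 178.4, 192.4 and 187.0 FPKM in control cells and 181.6, 186.0 and 179.6 FPKM after I3, a log2 fold change of -0.027. ODC1 was at 139.6, 143.6 and 144.8 FPKM in control cells and 141.9, 131.9 and 125.3 FPKM after I3, a log2 fold change of -0.103. EIF4G1 was at 118.6, 147.1 and 143.5 FPKM in control cells and 132.7, 138.3 and 134.1 FPKM after I3, a log2 fold change of -0.009.

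Of 12 genes known to be repressed by MYC, 7 were tested, and 0 had an unadjusted p under 0.05 (4.93% of all tested genes). The median log2 fold change was -0.097. CEBPA, a factor of granulocyte development, was at 3.83, 4.46 and 4.15 FPKM in control cells and 3.67, 4.61 and 1.48 FPKM after I3. I3 3 alone lay below the control range by more than 1 FPKM, and the interval of the difference was wide, from -1.16 to 0.333. NDRG1, a gene of differentiation and stress, was at 5.57 to 7.24 FPKM in control cells and 5.5 to 5.74 FPKM after I3 (-0.14, 95% interval -0.368 to 0.088). CDKN1C, a cyclin-dependent kinase inhibitor, was at 0.328 to 0.782 FPKM in control cells and 0.34 to 0.543 FPKM after I3 (-0.247, 95% interval -0.795 to 0.3). CDKN1A, the inhibitor p21 and a usual target of HDAC inhibitors, was at 2.0, 1.09 and 1.35 FPKM in control cells. After I3 it was at 1.78, 1.31 and 0.955 FPKM (log2 fold change -0.097, 95% interval -0.624 to 0.431). A decrease of CDKN1A past the log2 fold change threshold was therefore not outside its interval. CDKN1A was named after its values had been seen. The long noncoding RNA PVT1, next to MYC, was at 2.13, 1.68 and 2.22 FPKM in control cells and 2.13, 2.4 and 2.35 FPKM after I3 (0.16, 95% interval -0.112 to 0.433).

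**Figure D4:**
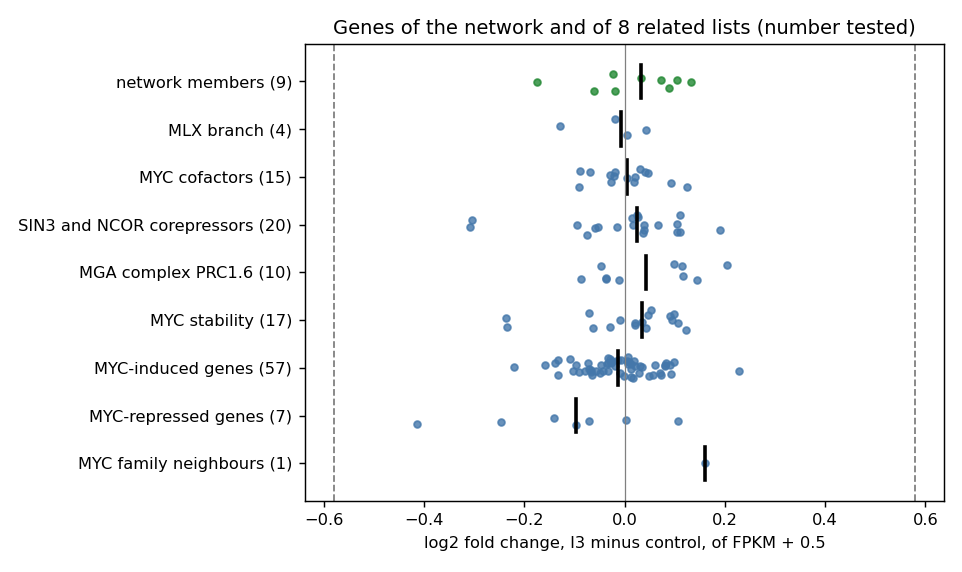
log2 fold change of FPKM + 0.5, I3 minus control, of each tested gene (points, spread vertically at random) of the network (green) and of 8 related lists (blue), with black bars at medians, the number tested in brackets and dashed lines at 0.58 in either direction. No point reaches a dashed line, and the medians of all lists with more than 1 tested gene lie between -0.097 and 0.044.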

How the data were processed

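mRNA-seq was performed by the authors on 3 control and 3 I3 libraries of Kasumi-1 cells, grouped by their labels. Libraries were prepared from Trizol-extracted RNA with a stranded mRNA kit. The authors deposited FPKM values per gene and library, with no read counts. The submitters' processing notes name Trimmomatic, HISAT2, Cufflinks, HTSeq and hg38, without roles or order. The name of the deposited table gives the compound as I13, and the labels as I3. No column was left out (0 columns). The labels do not say whether libraries came from separate cultures, so p-values measure only the spread between these libraries, which may be technical.

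Identifiers were matched to GENCODE 29 (29703 of 29810), which gave coordinates and exon lengths on GRCh38. Reads rebuilt from FPKM were whole in all libraries for 95.49% of 26519 genes at a tolerance of 0.1 read. limma 3.58.1 in R 4.3.3 (lmFit, eBayes with trend) was run on log2(FPKM + 0.5) over all tested genes, and checked on simulated data. An exact permutation test over 20 arrangements, two-sided, was added for each member. Chi-square and exact binomial values of rebuilt reads cover counting error only. Tables, permutations and plots were made with Python 3.11.15, pandas 2.3.3, scipy 1.17.1 and matplotlib 3.10.9. Promoter windows came from RefSeq (GRCh38.p14), and 9 of the 10 members had one.

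Genes are named by a rule, all members, the 3 tested genes of each list with the smallest unadjusted p (all where a list has 5 or fewer), and the 3 genes most correlated with MYC and with MAX, of which 1 each is not reported here. Genes outside it are the markers, genes overlapping a member or shown for their sequence, EIF4A1, and those said to be named after their values had been seen. MLXIPL had no FPKM values and entered only the count of promoter windows. The members, lists and tests were chosen with earlier results of these data known, and the roles within the list of MYC-induced genes were assigned after the data had been seen. Alternatives were pseudocounts of 0.1 and 1, no minimum and minimums of 1 and 5 FPKM, median-of-ratios scaling, TPM, removal of the GC trend (lowess, span 0.3), quantile normalization, eBayes without trend, the replicate number as a block, voom on rebuilt reads (mean of at least 10) and each library left out.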

Additional observations from a re-analysis of the deposited data

How the results depend on the processing

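Under all 18 alternatives, 0 members were called at the adjusted p. Of 159 values of single members under the alternatives, 150 kept their sign and their side of an unadjusted p of 0.05, 8 turned sign and 1 passed it. Removal of the GC trend turned the log2 fold change of MYC to 0.0001 and that of MXD4 to 0.0141. With 1 library left out, it ranged from -0.0758 to 0.0329 for MYC, from -0.0637 to 0.0088 for MXD4 and from -0.0342 to 0.1824 for MXI1, and for MYCN, whose sign did not turn, from -0.3762 without control 3 to -0.0255 without control 2. The cause was not tested. The number of members whose groups did not overlap was 0 with a mean of at least 5 FPKM, which leaves out MNT, and 0 with median-of-ratios scaling and with quantile normalization. It ranged from 1 to 5 with 1 library left out, with 5 without control 1, 3 without I3 2 and 2 without control 3, and groups of 2 and 3 libraries separate more readily than 3 and 3. The number of members at an unadjusted p was 0 to 1 with 1 library left out, and the 1 was MXD1 without control 1. The median of the PRC1.6 list was -0.0112 with a mean of at least 5 FPKM, and that of the MYC-induced genes was -0.0641 without control 1, where 7 of its 57 genes and 1420 of all 12960 tested genes had an unadjusted p under 0.05. That count was 5 with the GC trend removed and 1 without control 2, without control 3 or with eBayes without trend. For the SIN3 and NCOR corepressors, with 0 in the main fit, it reached 2 of 20 genes with voom, with the replicate block, without control 1 and without I3 1. For MYC stability it reached 2 of 17 genes with the GC trend removed, where 776 of all 12960 tested genes passed. For the MLX branch and for the MYC cofactors it was 1 without control 1.

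The deviations of same-numbered libraries correlated by 0.0634, 0.151 and -0.0239, not over 0.1 in each pair, and the labels name nothing that a number marks, so the number was not taken to pair the libraries. With the number as a replicate block, 0 members were called, 0 had an unadjusted p under 0.05 and 1 had groups that did not overlap, while 856 instead of 639 of all tested genes had an unadjusted p under 0.05. By depth, MYCL with 4 to 11 reads per library is the member least able to show a difference, and the spread between libraries rather than depth limits MYC and MXI1.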

Other observations

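A few genes that most cells use in abundance were listed at low levels, and they are named after their values had been seen. HSPE1, the co-chaperonin of HSPD1, was listed at 1.82 to 3.26 FPKM beside 242.2 to 265.6 FPKM for HSPD1. NME1, a nucleoside diphosphate kinase, was listed at 3.18 to 4.96 FPKM, and EIF4A1 at 24 to 48 reads per library. These values are given as deposited, and how reads in exons shared by several genes were counted was not tested.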
